A study of Mus musculus with 12 samples.

Results

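The cytosolic ribosome of the mouse is built from ribosomal RNA and many proteins, named Rpl in the large subunit and Rps in the small subunit. The genes described here are the protein-coding genes with such a symbol in GENCODE M21, the symbol starting with Rpl or Rps and a digit, together with Rpsa, Rplp0, Rplp1 and Rplp2. Kinase genes of the Rps6k family and names marked as pseudogenes were left out, and a gene needed at least 120 counts over all libraries. The rule gave 79 genes of the 54532 in the count table, 47 of the large and 32 of the small subunit. Another 5 genes with such a symbol stayed below the floor of 120 counts. These were Rpl24 (116 counts), Rpl3l (66), Rpl36al (20), Rpl39l (15) and Rpl10l (1). The symbol of Rps19bp1 met the rule, but the gene encodes a protein that binds RPS19 and not a ribosomal protein. It is kept in the counts and is named where it appears.

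Polyadenylated RNA was sequenced from the frontal cortex of 12 mice at 9 months of age. All 12 mice carried the APP/PS1 transgenes, which give a mouse model of amyloid deposition, and 6 of them also lacked Hras (APP/PS1/Hras-/-), the gene of a Ras GTPase that relays growth signals from the cell membrane. Each genotype had 3 males and 3 females, and no mice without the transgenes entered the comparison. The sources used here do not state the promoter of the transgenes or the genetic background of the mice. All 8 marker genes of cortical neurons were detected in each library, with summed levels of 1790 to 2440 CPM (counts scaled to the library total). Markers of neighbouring tissue varied widely between libraries, from 11.3 to 3110 CPM for the choroid plexus, highest in an APP/PS1 female, and from 187 to 843 CPM for striatal projection neurons. No source says whether the mice were littermates, so p-values measure the spread between these 12 samples.

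Ribosomal protein mRNAs are among the most abundant in a cell, and their proteins are made in nearly equal amounts. Many of them start with a C followed by a run of pyrimidines, the 5′ terminal oligopyrimidine (TOP) sequence, through which mTORC1 and LARP1 control how strongly they are translated. Growth signals that pass through Ras, ERK and mTORC1 are known to raise ribosome production, and local ribosomes in dendrites and axons support protein synthesis at synapses. Sequencing of mRNA measures the amount of these messages and not their translation.

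A run of pyrimidines lay across the annotated start in the RefSeq promoter entries (GRCm38.p6) of many of these genes. An entry was found for 59 of the 79 genes. In 14 of them (23.7%) the start lay inside a run of at least 8 pyrimidines, against 3.81% of the 27025 promoter entries of all genes. The letters CTTTCC, searched on both strands from 250 bases before to 50 after the start and allowed to lie inside such a run, were found in 47.5% of the 59 entries and in 26.3% of all entries. The letters CCGGAAGT, a form of the site bound by ETS factors, were found in 18.6% and in 4.0%. Of the entries with the longest runs, 6 are shown from 30 bases before to 20 bases from the start on, with the run in capitals.
Rpl7a (chr2:26910777-26910826, plus strand): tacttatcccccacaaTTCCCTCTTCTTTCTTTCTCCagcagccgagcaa
Rpl27a (chr7:109519165-109519214, plus strand): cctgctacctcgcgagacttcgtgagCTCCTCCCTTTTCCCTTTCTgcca
Rpl35 (chr2:39005112-39005161, minus strand): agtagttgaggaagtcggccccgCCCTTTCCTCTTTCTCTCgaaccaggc
Rpl15 (chr14:18270967-18271016, minus strand): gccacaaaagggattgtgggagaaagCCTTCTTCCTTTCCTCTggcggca
Rpl14 (chr9:120571487-120571536, plus strand): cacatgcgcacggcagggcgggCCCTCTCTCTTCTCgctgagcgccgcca
Rps10 (chr17:27635225-27635274, minus strand): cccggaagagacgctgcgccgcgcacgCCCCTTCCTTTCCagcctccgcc
The run was 21 bases long in Rpl7a, 20 in Rpl27a, 18 in Rpl35, 17 in Rpl15, 14 in Rpl14 and 13 in Rps10. These 6 genes differed widely in level and in how far their counts could be told from those of copies, as given further on.

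Total counts per library ran from 13984692 to 20174131, and the 79 genes took 1.01% to 1.26% of them. The library of APP/PS1 male 1 stood apart. Its RNA integrity number (RIN, a measure of how intact the RNA was) was 7.8, the lowest of the 12. The RIN was 8.2 and 8.3 in the other APP/PS1 males, 8.6, 8.5 and 8.5 in APP/PS1 females, 8.6, 8.7 and 8.7 in APP/PS1/Hras-/- males and 8.5, 8.4 and 8.3 in APP/PS1/Hras-/- females. In males the RIN ranges of the genotypes did not overlap, so genotype and RIN cannot be fully told apart there.

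Summed over the 79 genes, the level was 12750, 10980 and 10180 CPM in APP/PS1 males and 10830, 10580 and 10760 CPM in APP/PS1 females. It was 10940, 11300 and 10170 CPM in APP/PS1/Hras-/- males and 10760, 11560 and 10580 CPM in APP/PS1/Hras-/- females. The ranges of all 4 groups overlapped, and the mean was 11010 ± 894 CPM (SD, n = 6) in APP/PS1 mice and 10890 ± 500 CPM (SD, n = 6) in APP/PS1/Hras-/- mice. The large subunit summed to 6619 ± 521 and 6474 ± 277 CPM, and the small subunit to 4392 ± 377 and 4414 ± 261 CPM (SD, n = 6 each). In APP/PS1 male 1, 78 of the 79 genes lay above their own mean over the libraries, by a median of 0.22 on the log2 scale. It held the highest value of 45 of the 79 genes, while it held the highest value of 17.2% of all genes tested. APP/PS1/Hras-/- female 2, the library with the fewest counts, held the highest value of 23 genes and of 11.8% of all genes tested. The lowest values lay mostly in APP/PS1/Hras-/- male 3 (29 genes) and APP/PS1 male 3 (19 genes). These libraries held the lowest value of 8.2% and 7.63% of all genes tested. Among the APP/PS1 males, male 1 had the highest summed level of the cortical neuron markers (2410 CPM). It also had the highest of the choroid plexus (205 CPM) and leptomeningeal fibroblast (92.4 CPM) markers in that group. It had the lowest of the microglia (465 CPM), astrocyte (4710 CPM), endothelium (240 CPM) and striatal neuron (187 CPM) markers. The part of tissue content and RNA integrity in the level of that library was not tested, and in bulk tissue fewer cells of a type and less RNA per cell cannot be told apart.

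**Figure D1:**
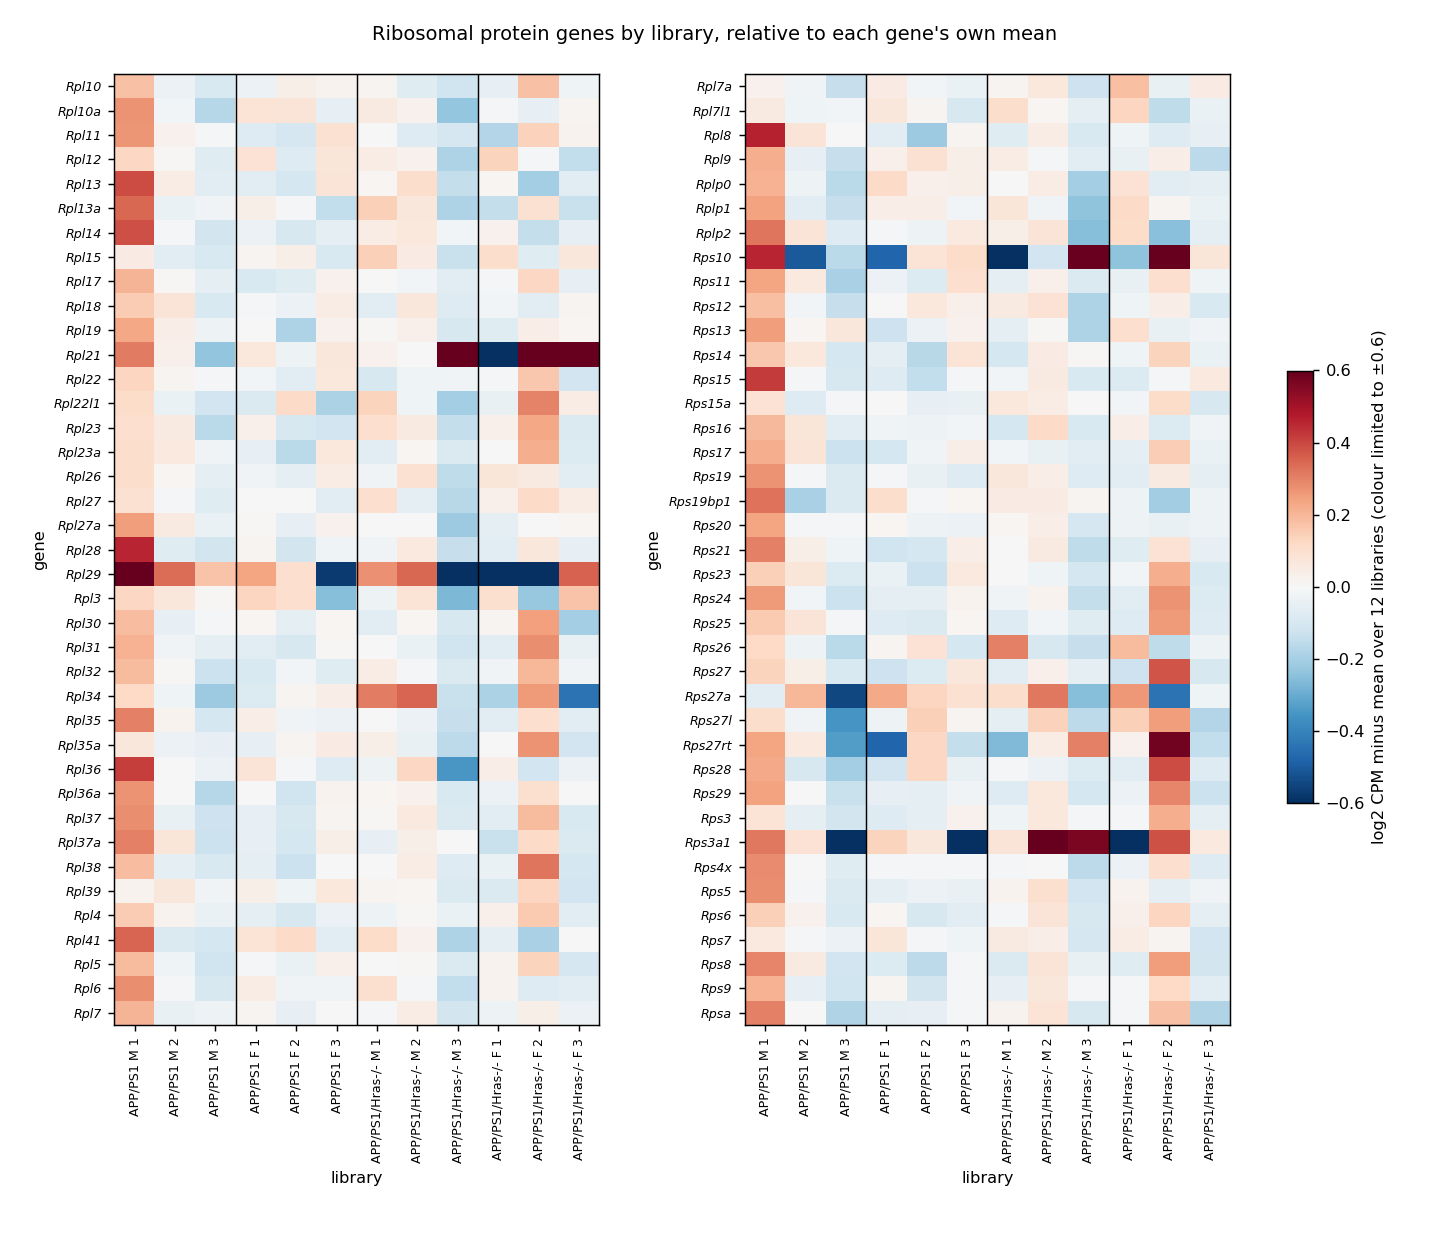
Each row is 1 of 78 of the 79 genes and each column 1 of the 12 libraries, with M for males and F for females, and colour gives log2 CPM minus the gene's mean over the libraries, limited to ±0.6. The column of APP/PS1 male 1 is red for 77 of the 78 genes drawn, while Rpl21, Rpl29, Rps3a1 and Rps10 change between libraries of the same group.

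The genes differed in level by over 2 orders of magnitude on the scale of CPM per kb of the principal transcript, the scale used for comparisons between genes. The median was 174 CPM per kb, with quartiles of 122.5 and 236. The highest was Rplp1, an acidic protein of the ribosomal stalk that binds elongation factors, with a mean of 694 CPM per kb and a range of 584.5 to 817 over the libraries. Rps29, a small zinc-binding protein of the small subunit, followed with 616 (559.7 to 751), and Rpl41, the shortest ribosomal protein, with 542 (471.5 to 688). Rps15 had 486 (437 to 647) and Rpl26 350.5 (315 to 376). The ranges of Rplp1, Rps29 and Rpl41 each overlapped with that of the next gene in the order, whereas that of Rpl26 lay wholly below that of Rps15. With the length of all annotated exons in place of the principal transcript, an alternative chosen after seeing the data, Rplp1 stayed first with 694, Rps15 came second with 386 and Rpl26 was at rank 18.

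At the low end stood Rps10 with 3.55 CPM per kb, Rps27rt with 9.22, Rpl13a with 10.4, Rps27l with 13.3 and Rps19bp1 with 13.5. Rps27rt is a retrogene of Rps27 and Rps27l a paralog of it, and Rps27 itself had 279 CPM per kb. Rps10 and Rpl13a are core proteins of the small and the large subunit. In Rps10, 91.6% of the principal transcript is also annotated on the same strand to the readthrough gene RPS10-NUDT3, and in Rpl13a 59.3% to Gm45713. Rpl24 (71.5%, Gm28037) and Rpl36al (63.1%, Gm49383), both below the floor of counts, were the other genes with over 50% of the transcript overlapped on the same strand. None of these 4 reached more than 10.4 CPM per kb, and the lowest core gene outside them was Rps20 with 25.1. The transcript of Rps20 used for the length is 3706 bases long. Over 25% of the transcript was overlapped on the opposite strand in 5 genes, with a median of 112 CPM per kb. They were Rpl22l1 (77.1), Rpl35 (85.55), Rpl5 (112), Rpl30 (181) and Rpl23a (243), on both sides of the median of all 79 genes (173.5). The median was 176 in the genes with at most 25% of the transcript overlapped on either strand, which leaves out Rps10 and Rpl13a as well. The counter and its settings for reads that fall in more than 1 gene are not given in full, so levels of overlapped genes are uncertain, and the part of the overlap was not tested.

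**Figure D2:**
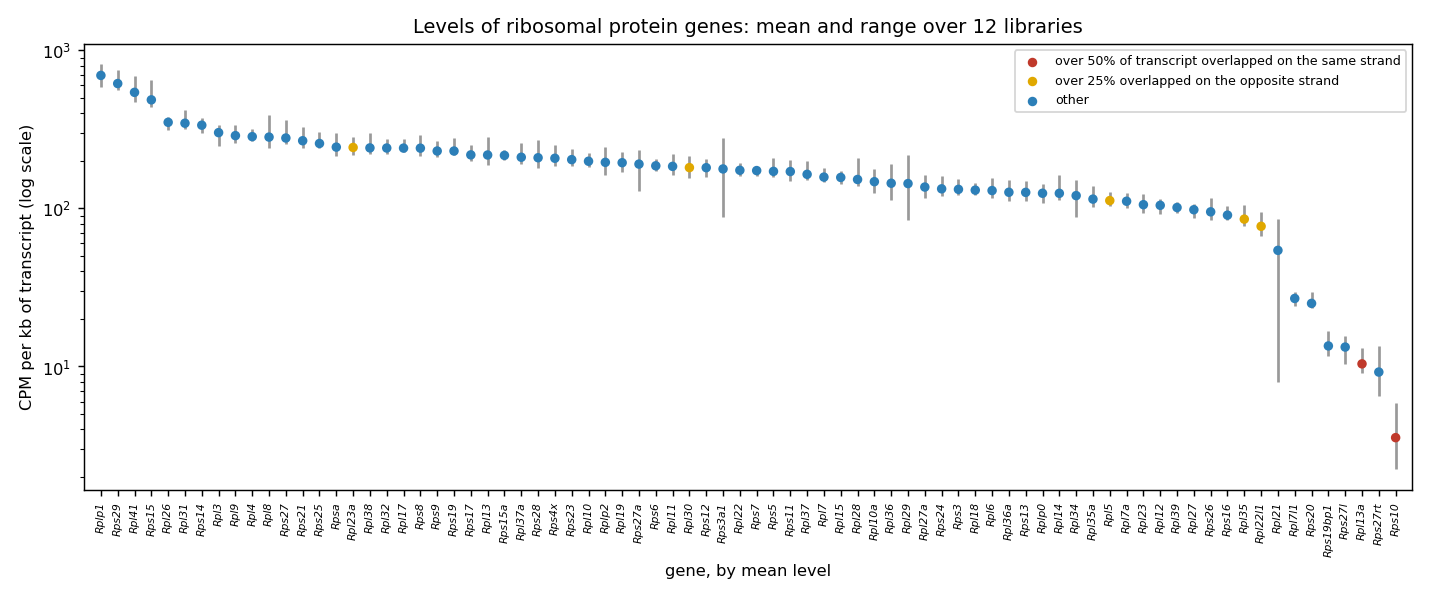
The 78 genes drawn are ordered by mean CPM per kb of the principal transcript (log axis), with points for the mean and lines for the range over 12 libraries. Red marks genes with over 50% of the transcript overlapped on the same strand (Rps10 and Rpl13a, both at the low end), and yellow those with over 25% overlapped on the opposite strand.

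Loss of Hras was compared with its presence across both sexes, with sex in the model. No ribosomal protein gene passed the threshold, and most estimates were small. By the quasi-likelihood test of edgeR, 0 of 79 genes passed an adjusted p of 0.05, where 0.0173% of all 17307 genes tested did. At an unadjusted p under 0.05 there were 0 genes by edgeR and 0 by DESeq2, where edgeR had 1.68% of all genes. The 79 log2 differences (APP/PS1/Hras-/- minus APP/PS1) had a median of -0.02, 50 were below 0 and 29 above, and 48.9% of all genes were below 0. In no gene did the values of the genotypes separate, while they did in 0.116% of all genes. For 66 of the 79 genes the 95% interval of the difference lay within ±0.25 on the log2 scale. For the other genes the interval reached beyond these bounds, so whether they changed stayed undetermined.

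In the large subunit 32 of 47 estimates were below 0, with a median of -0.03. The lowest p belonged to Rpl27a, a protein of the large subunit, with 163 ± 12.9 CPM (SD, n = 6) in APP/PS1 and 153 ± 9.08 CPM (SD, n = 6) in APP/PS1/Hras-/- mice. Its difference was -0.09 (SE 0.064, edgeR adjusted p = 0.9999). Estimates for Rpl36, Rpl13, Rpl41, Rpl8 and Rpl9 ran from -0.12 to -0.07, and that of Rpl29 was -0.26 (SE 0.24). Above 0, the smallest p belonged to Rpl23 (0.06, SE 0.071), Rpl15 (0.05, SE 0.059), Rpl7a (0.05, SE 0.056) and Rpl22l1 (0.07, SE 0.084). In the small subunit 18 of 32 estimates were below 0, with a median of -0.01. Above 0, its smallest p belonged to Rps3a1 (0.34, SE 0.27), Rps3 (0.06, SE 0.061), Rps27rt (0.18, SE 0.18) and Rps10 (0.20, SE 0.26). All of these had an edgeR adjusted p of 0.9999.

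The stalk of the large subunit is formed by Rplp0 with the acidic proteins Rplp1 and Rplp2, and Rpsa is a small-subunit protein also known as the laminin receptor. Rplp0 had 195, 166 and 151 CPM in APP/PS1 males, 183, 172 and 173 in APP/PS1 females, 169, 174 and 147 in APP/PS1/Hras-/- males and 179.6, 161 and 162 in APP/PS1/Hras-/- females. The genotypes overlapped, and the difference was -0.07 (95% interval -0.20 to 0.07). Rplp1 differed by -0.04 (-0.18 to 0.11) and Rpsa by less than 0.01 (-0.17 to 0.16).

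Rplp2 lies on chromosome 7, 253 kb from Hras (GRCm38, 141447370 to 141451585), and is the only 1 of 14 ribosomal protein genes of that chromosome within 10 Mb of Hras. It had 102, 86.5 and 77.5 CPM in APP/PS1 males, 81.3, 80.2 and 85.4 in APP/PS1 females, 84.0, 86.3 and 68.7 in APP/PS1/Hras-/- males and 88.4, 68.9 and 78.7 in APP/PS1/Hras-/- females. Of the 6 knockout libraries 4 lay within the range of the controls, and APP/PS1/Hras-/- male 3 and female 2 lay below it. The difference was -0.11 (SE 0.083, 95% interval -0.27 to 0.05, edgeR adjusted p = 0.9999).

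Several genes have a near relative, in some cases with the same role in other tissues or in special conditions. Rpl22l1, which can take the place of Rpl22, had 42.5 CPM over the libraries against 82.6 for Rpl22, and the genotype difference was 0.07 (SE 0.084) for the first and -0.03 (SE 0.058) for the second. Rpl7l1 (35.3 CPM), a relative of Rpl7 (183.5 CPM) with a role in ribosome assembly, differed by less than 0.01 (95% interval -0.12 to 0.12) and Rpl7 by -0.04. Rps27l (6.62 CPM) differed by 0.05 (SE 0.11) and Rps27 (96.2 CPM) by 0.03 (SE 0.085). The relatives Rpl3l, Rpl10l, Rpl36al and Rpl39l stayed at or below 0.66 CPM in each library, and Rpl10l had a single count in all. The level of Rpl36al is uncertain, since 63.1% of its transcript is overlapped on the same strand by Gm49383. Their partners Rpl3, Rpl10, Rpl36a and Rpl39 had means of 407.5, 159, 61.1 and 62.0 CPM. Rpl10, Rpl36a, Rpl39 and Rps4x lie on the X chromosome, and their female-minus-male differences were 0.04, -0.02, less than 0.01 in size and -0.02 on the log2 scale.

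Within males, estimates leaned to lower values in APP/PS1/Hras-/- mice, within females to higher ones, and no gene passed in either sex. In males 0 of 79 genes passed in edgeR, where 0.0116% of all genes did, with 1 gene at an unadjusted p under 0.05 in edgeR (3.91% of all genes) and 2 in DESeq2. The median difference was -0.07, with 64 genes below 0, against 48.5% of all genes. Large-subunit genes had a median of -0.08 (41 of 47 below 0) and small-subunit genes of -0.06 (23 of 32). In females 0 of 79 genes passed in edgeR, where 0.0116% of all genes did, and 0 had an unadjusted p under 0.05 in edgeR (3.81% of all genes) or DESeq2. The median was 0.03, with 56 genes above 0, against 50.5% of all genes. It was 0.02 in the large subunit (29 of 47 above 0) and 0.05 in the small subunit (27 of 32).

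Markers of cell types were read from the same comparisons, with 8 genes in each list named here, and none of them passed in edgeR. Markers of a list share their libraries, so the counts of markers on a side of 0 are not independent results. The median SE of the markers in males was 0.146 for cortical neurons, 0.165 for microglia and 1.64 for the choroid plexus. In females it was 0.146, 0.163 and 1.49. In males the median difference of cortical neuron markers was -0.13 (7 of 8 below 0). It was 0.16 for microglia, 0.12 for astrocytes and 0.16 for endothelium (7 of 8 above 0 each), and 1.61 for the choroid plexus (8 of 8 above 0). In females that of cortical neuron markers was 0.22 (7 of 8 above 0). All 8 markers were below 0 for microglia (-0.20), astrocytes (-0.18), leptomeningeal fibroblasts (-0.52) and the choroid plexus (-2.30). The cortical neuron markers thus stood on the same side of 0 as the median of the ribosomal protein genes in each sex. Those of striatal projection neurons did so only in males (-0.27, 7 of 8 below 0), with -0.38 in females (8 of 8 below 0). Oligodendrocyte markers had 0.06 in males (7 of 8 above 0) and 0.16 in females (8 of 8 above 0). The part of tissue content in these medians was not tested.

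The 1 gene at an unadjusted p under 0.05 in males was Rps13, a small-subunit protein at the contact between the subunits. It had 88.2, 74.8 and 77.8 CPM in APP/PS1 males and 71.5, 74.4 and 65.3 CPM in APP/PS1/Hras-/- males. Values in females were 68.1, 72.3 and 75.6 CPM with Hras and 79.5, 72.0 and 73.2 CPM without it. The males did not overlap and the females did. The difference was -0.19 in males (SE 0.085, unadjusted p = 0.0444, edgeR adjusted p = 0.945) and 0.06 in females (SE 0.085). In males without APP/PS1 male 1 it was -0.12. Males also did not overlap in Rps25 and Rpl22, so that 3 genes had all knockout males below the controls and 0 genes above, where 5.22% and 5.08% of all genes had. In females Rpl27 lay wholly above the controls and Rps19bp1 wholly below, 1 gene each way, where 4.33% and 5.0% of all genes did.

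Rpl8, which lies next to the peptidyl transferase centre, had 330, 252 and 239 CPM in APP/PS1 males and 227, 247 and 224 CPM in APP/PS1/Hras-/- males. The highest of these was again APP/PS1 male 1, and the groups overlapped. The difference was -0.23 (SE 0.11, edgeR adjusted p = 0.945), and -0.08 without that library. Rpl27a (-0.16), Rpl36 (-0.21), Rpl11 (-0.16), Rps21 (-0.14), Rpl35 (-0.14) and Rps25 (-0.13) followed in males, all at an edgeR adjusted p of 0.945. Rpl11 is known for binding MDM2 when ribosome assembly fails. Above 0 in males were Rps3a1 (0.57, SE 0.39), Rpl34 (0.23, SE 0.17) and Rps27a (0.18, SE 0.21), each with a wide error, and then Rpl15, Rps15a, Rps26, Rps3 and Rpl7a with at most 0.06.

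Among the smallest p above 0 in females were those of Rpl22l1 (0.15, SE 0.12), Rpl32 (0.12, SE 0.091), Rps27rt (0.33, SE 0.25), Rpl4 (0.10, SE 0.080), Rpl23 (0.12, SE 0.10), Rpl38 (0.13, SE 0.11) and Rpl31 (0.12, SE 0.10). Rpl38 had 79.9, 75.9 and 83.0 CPM in APP/PS1 females and 80.6, 103.8 and 77.2 CPM in APP/PS1/Hras-/- females. Only APP/PS1/Hras-/- female 2 lay above the controls in that gene. Without that library the median over the 79 genes in females was -0.01. Below 0 stood Rpl9 (-0.11, SE 0.093), Rpl41 (-0.13, SE 0.12), Rps27a (-0.19, SE 0.21), Rps19bp1 (-0.12, SE 0.14) and Rplp0 (-0.07, SE 0.099), followed by Rps12, Rpl39 and Rpl34. All had an edgeR adjusted p of 0.9905.

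The difference between the sexes in the genotype effect was tested directly as an interaction, and 0 of 79 genes passed in edgeR, where 0% of all genes did. No gene had an unadjusted p under 0.05 in edgeR (7.21% of all genes) or in DESeq2. The median interaction (female minus male) was 0.11, with 64 genes above 0 against 49% of all genes. It was 0.24 for Rps13 (SE 0.12, edgeR adjusted p = 0.667), 0.27 for Rpl8 (SE 0.16), 0.22 for Rps25 and 0.19 for Rpl23a. On the other side Rpl34 had -0.32 (SE 0.24), Rps27a -0.37 (SE 0.30), Rps3a1 -0.46 (SE 0.56), Rps19bp1 -0.13 and Rpl9 -0.08. The median interaction of the markers was 0.36 for cortical neurons (7 of 8 above 0), -0.32 for microglia (8 of 8 below 0), -0.29 for astrocytes (7 of 8 below 0) and -3.81 for the choroid plexus (8 of 8 below 0).

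These medians turned on 1 library. Without APP/PS1 male 1 the median in males was 0.02. In that fit 49 genes were above 0 and 30 below, while 46.4% of all genes were below 0. The median across sexes was then 0.02, and that of the interaction was 0.002. The cortical neuron markers without that library still had a median of -0.17 in males and 0.34 for the interaction. With RIN as a term in the model, the median in males was 0.21, with 75 genes above 0 and 6 at an unadjusted p under 0.05, and 0 passed in edgeR. The median of the interaction was then -0.23, that in females -0.04 (49 genes below 0, 2 of them at an unadjusted p under 0.05) and that across sexes 0.04 (58 genes above 0). The shares of all genes in the fits with RIN are not given here, so these counts have no background to be read against.

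**Figure D3:**
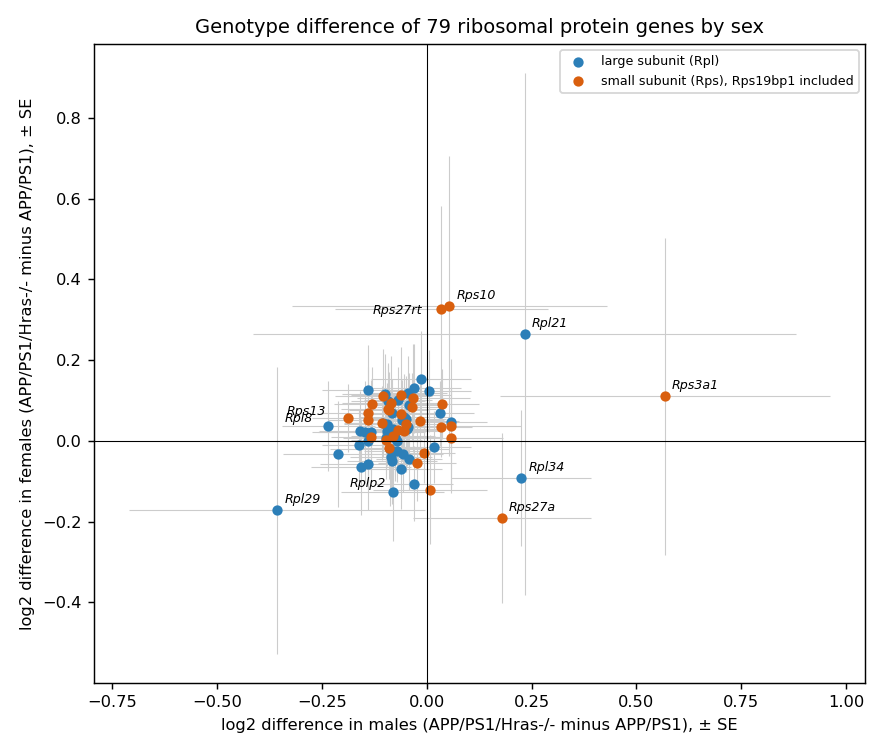
Each point is 1 gene, with its log2 difference in males (x axis) and in females (y axis), APP/PS1/Hras-/- minus APP/PS1, and bars of 1 SE. Most points lie left of 0 (64 of 79 in males) and above 0 (56 of 79 in females), and bars are widest for Rpl21, Rps3a1, Rps10 and Rpl29.

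Sex itself was compared across genotypes. Of the 79 genes 0 passed in edgeR, where 0.0693% of all genes did, and 0 had an unadjusted p under 0.05 in edgeR (4.65% of all genes) or DESeq2. The median difference (female minus male) was -0.02, with 50 genes below 0 against 49.4% of all genes, and the 95% interval lay within ±0.25 for 65 genes. The smallest p below 0 belonged to Rpl8 (-0.15, SE 0.084, edgeR adjusted p = 0.989), Rpl14 (-0.13), Rpl13 (-0.12), Rpl29 (-0.35, SE 0.24) and Rps15 (-0.10). Above 0 were Rpl7a (0.06), Rps27l (0.11), Rpl35a (0.06), Rps28 (0.07) and Rpl10 (0.04). Microglia markers had a median of 0.36 (8 of 8 above 0) and cortical neuron markers of -0.12 (7 of 8 below 0), and their part was not tested.

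For RIN the estimates lay mostly on one side, although no gene passed. With sex and genotype in the model, 74 of the 79 genes had an estimate below 0 per RIN unit, with a median of -0.26, while 49.7% of all genes lay below 0. In edgeR 0 of 79 genes passed an adjusted p of 0.05, where 0% of all genes did. An unadjusted p under 0.05 was found in 18 genes (22.8%), all of them lower at higher RIN, against 13.2% of all genes, and DESeq2 gave 19. Rps15 had 323.5, 241 and 226 CPM in APP/PS1 males, in order of rising RIN, and 218 to 252 CPM in the other 9 libraries. Only the library with a RIN of 7.8 stood above the rest. Its estimate was -0.48 per RIN unit (SE 0.14, edgeR adjusted p = 0.231), and -0.13 without APP/PS1 male 1. Rpl8 had -0.48 (SE 0.14, edgeR adjusted p = 0.231), and -0.16 without it. Rps21 (-0.37), Rpl11 (-0.37) and Rps13 (-0.34) followed. The other side held Rps27a (0.33, SE 0.37), Rpl34 (0.16, SE 0.30), Rps3a1 (0.04), Rpl7l1 (0.02) and Rps7 (0.01). Without APP/PS1 male 1 the median was -0.02, with 43 genes below 0 and 36 above, while 48.7% of all genes were below 0. Of the 79 genes 0 then had an unadjusted p under 0.05 in edgeR. Cortical neuron markers had a median of -0.24 per RIN unit (7 of 8 below 0), and of -0.40 without that library. Microglia markers had 0.56 (7 of 8 above 0) and 0.43.

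**Figure D4:**
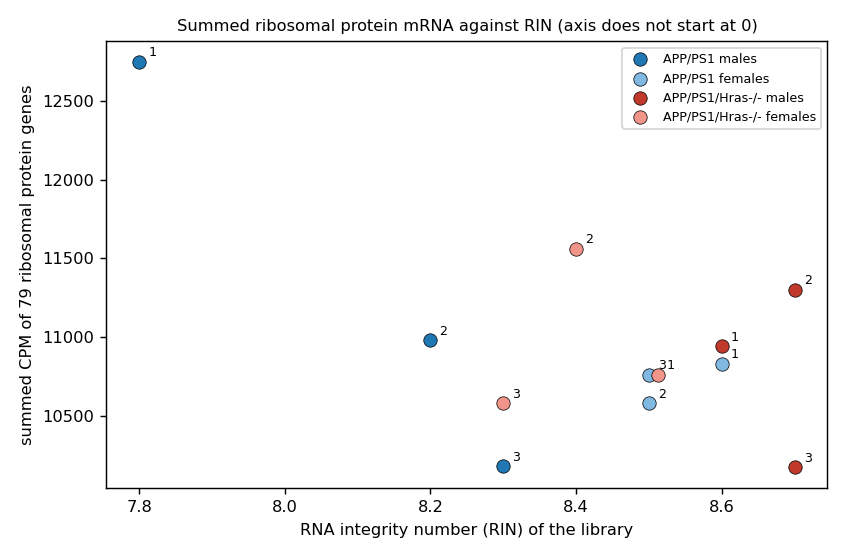
The summed CPM of the 79 genes (y axis, not starting at 0) is plotted against the RIN of each library (x axis), with colours for the 4 groups and numbers for replicates; 1 of 2 coinciding points is drawn slightly to the right. APP/PS1 male 1 stands alone at a RIN of 7.8 and 12750 CPM, and the other 11 libraries lie between 10170 and 11560 CPM.

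Ribosomal protein genes have left many processed pseudogenes, copies of their mRNA inserted elsewhere in the genome. GENCODE M21 transcripts of such pseudogenes were matched by sequence, at 80% identity or more over at least 100 bases, or by symbol to 76 of the 79 genes. By sequence each pseudogene was assigned only to its best match, and Rpl41, Rps27 and Rps19bp1 had none assigned. For Rps27 this does not mean that no similar sequence exists. Its retrogene Rps27rt was assigned 13 copies, and 98.4% of the stretches of 100 bases in Rps27 also occur in transcripts of other genes. The table held 1513 copies, of which 593 had a count, and together these took 155590 counts against 2269317 of the 79 genes (6.86%). A gene had a median of 14 copies, and Rpl7a had the most with 158. Copies relative to the own counts of the gene stood highest for Rps10 (1626%), Rpl23 (52.0%), Rpl14 (38.0%), Rpl29 (35.8%) and Rps3a1 (33.5%). Rps10 had between 1.11 and 2.92 CPM in the 12 libraries, whereas its copies together had between 24.9 and 31.1 CPM, most of them in Rps10-ps2 (21.4 to 26.6 CPM). In Rps10, 89.5% of the stretches of 100 bases also occur in transcripts of other genes. Whether a read with several alignments was counted, and where, is not given in the sources used here.

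The values of a gene between libraries varied by a median of 7.98% (coefficient of variation), from 4.19% in Rps7 to 39.2% in Rpl21, and 7 genes exceeded 15%. These were Rpl21, Rps3a1, Rps10, Rpl29, Rps27rt, Rps27a and Rpl34. For 39 of the 76 genes with copies the coefficient was lower when counts of the copies were added, and its median was then 7.94%. It went from 33.3% to 12.8% in Rps3a1, from 32.1% to 6.74% in Rps10, from 16.1% to 7.60% in Rpl34, from 30.4% to 23.6% in Rpl29 and from 39.2% to 36.5% in Rpl21. Genes and copies described in the next paragraphs were chosen after their values were seen, apart from those that the rule names, and their patterns were not tested.

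Gm5905, a copy of the small-subunit protein gene Rps9, was the only 1 of 134 tested copies that passed in edgeR across sexes, where 0.0173% of all genes did. At an unadjusted p under 0.05 in edgeR, 2 copies were higher and 4 lower across sexes, where 1.68% of all genes had it in either direction. Gm5905 is a processed pseudogene on the minus strand of chromosome 7 (GRCm38, 141177885 to 141178464), 10.6 kb from Hras. It had 0.42, 0.57 and 0.14 CPM in APP/PS1 males and 0.71, 0.75 and 0.49 CPM in APP/PS1 females. In APP/PS1/Hras-/- mice it had 52.9, 59.2 and 50.9 CPM in males and 49.0, 64.5 and 53.0 CPM in females. Every knockout library lay above every control. The log2 difference was 6.69 (SE 0.17, edgeR adjusted p = 1.409e-11) across sexes, with an edgeR adjusted p under 0.05 in each sex. Rps9 itself had 199.9, 167 and 159 CPM in APP/PS1 males and 175, 160.3 and 172 CPM in APP/PS1 females. It had 167, 181 and 172 CPM in APP/PS1/Hras-/- males and 172, 188 and 165 CPM in APP/PS1/Hras-/- females, with a difference of 0.02 (95% interval -0.11 to 0.14). Values of Rps9 overlapped between the genotypes. With the copy added, Rps9 had 159 to 200.4 CPM in APP/PS1 and 218 to 252.5 CPM in APP/PS1/Hras-/- mice, a difference of 0.41 (edgeR adjusted p = 0.139).

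The copy and its parent differ at 11 aligned bases and 5 gap bases over 580 aligned bases. The window of 120 bases of the GENCODE M21 transcripts that shows how close they are holds 5 differing bases, in capitals.
Rps9 (bases 495 to 614 of the principal transcript): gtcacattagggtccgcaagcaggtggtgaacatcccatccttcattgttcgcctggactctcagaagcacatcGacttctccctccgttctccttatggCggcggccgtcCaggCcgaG
Gm5905 (chr7:141177953-141178072, minus strand): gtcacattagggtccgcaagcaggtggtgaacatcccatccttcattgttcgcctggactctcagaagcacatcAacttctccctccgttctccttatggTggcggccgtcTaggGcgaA

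Rps3a1, a small-subunit protein near the exit of the mRNA, and its copies Rps3a2 and Rps3a3 ran against each other between libraries. Rps3a1 had 204, 174 and 86.6 CPM in APP/PS1 males, 179.7, 172 and 95.5 CPM in APP/PS1 females, 173, 274 and 242 CPM in APP/PS1/Hras-/- males and 98.4, 214 and 171 CPM in APP/PS1/Hras-/- females. The copies together had 65.9, 54.6 and 96.3 CPM, 54.7, 47.2 and 99.6 CPM, 52.3, 4.35 and 3.80 CPM, and 112, 54.0 and 50.4 CPM in the same order. In the 3 libraries with the lowest Rps3a1 the copies were highest, and in the 2 with the highest Rps3a1 they were lowest. The sum of both ran only from 183 to 278 CPM. The genotype difference of Rps3a1 in males went from 0.57 to 0.14 with all its copies added. The parent and Rps3a3 differ at 9 of 795 aligned bases, and 2 of them fall in the window shown.
Rps3a1 (bases 274 to 393 of the principal transcript): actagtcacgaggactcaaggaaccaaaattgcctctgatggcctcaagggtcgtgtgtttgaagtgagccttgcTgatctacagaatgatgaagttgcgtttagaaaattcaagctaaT
Rps3a3 (chr13:108670743-108670862, plus strand): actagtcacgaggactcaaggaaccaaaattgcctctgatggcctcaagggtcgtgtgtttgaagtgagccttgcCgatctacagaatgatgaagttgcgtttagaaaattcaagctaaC

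Rpl29, a large-subunit protein that mice can live without, stood at distinct levels. It had 126.5, 101 and 89.9 CPM in APP/PS1 males, 94.05, 85.7 and 53.6 CPM in APP/PS1 females, 96.6, 101 and 49.6 CPM in APP/PS1/Hras-/- males and 52.4, 52.1 and 102 CPM in APP/PS1/Hras-/- females. The 4 libraries between 49.6 and 53.6 CPM were APP/PS1 female 3, APP/PS1/Hras-/- male 3 and APP/PS1/Hras-/- females 1 and 2. Its copy Gm8210 had 6.56, 6.66, 5.97 and 8.26 CPM in these 4 and at most 0.06 CPM in the other 8. The sum over all 115 copies in the table ran from 26.2 to 35.9 CPM. The parent and Gm8210 differ at 3 of 483 aligned bases, of which 1 lies in the first 120 bases of the coding part.
Rpl29 (bases 42 to 161 of the principal transcript): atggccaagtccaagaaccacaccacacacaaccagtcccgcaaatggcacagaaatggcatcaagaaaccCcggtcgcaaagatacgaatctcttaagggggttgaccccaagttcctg
Gm8210 (chr1:43189156-43189275, plus strand): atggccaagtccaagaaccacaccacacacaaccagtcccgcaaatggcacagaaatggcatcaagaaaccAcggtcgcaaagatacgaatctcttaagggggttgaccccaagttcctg

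Rpl21, a large-subunit protein, had 36.8 to 53.7 CPM in all 6 APP/PS1 libraries. In APP/PS1/Hras-/- mice it had 44.1, 43.4 and 71.1 CPM in males and 7.20, 75.2 and 77.2 CPM in females. The 4 values outside the range of the controls were all in knockout libraries, 3 of them above it and 1 below. Its copies did not run against it: they summed to 6.62 CPM in the library with 7.20 CPM of Rpl21 and to 21.6 CPM in that with 75.2 CPM. The 95% interval of its genotype difference, 0.25, ran from -0.60 to 1.10.

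In Rpl15, Rps26 and Rpl3 the copies stood at distinct levels. Rpl15 copies had 19.2 to 23.9 CPM in the APP/PS1 libraries and 2.99, 3.12 and 37.5 CPM in APP/PS1/Hras-/- males and 4.54, 44.6 and 3.16 CPM in APP/PS1/Hras-/- females. No knockout library lay within the range of the controls, but 4 lay below it and 2 above it. Most of these counts were of Gm10020 and Rpl15-ps2, which lie on chromosomes 15 and 9 and held the same libraries high and low. Rpl15 itself ran from 114 to 139 CPM over the 12 libraries. It had 114 and 119 CPM in the 2 knockout libraries with high copies and 130 to 139 CPM in the 4 with low copies. In the APP/PS1 libraries it had 118 to 130 CPM. Its coefficient of variation was 6.15%, and 6.39% with its copies added. Rps26 copies had 7.93 to 9.73 CPM in the APP/PS1 libraries and 0.23, 16.8, 0.19, 0.26, 0.71 and 8.04 CPM in the APP/PS1/Hras-/- libraries, where 4 were below 1. Rps26 had 57.6 to 70.0 CPM with Hras and 58.1 to 79.4 CPM without it. Rpl3-ps1, the main copy of Rpl3, had 52.8 to 71.8 CPM in 5 libraries and 20.2 to 25.5 CPM in the other 7, with both levels in both genotypes. Rpl3 itself had 339.7, 397, 336 and 347 CPM in APP/PS1 female 3, APP/PS1/Hras-/- males 1 and 3 and APP/PS1/Hras-/- female 2, all with high Rpl3-ps1. It had 442 CPM in APP/PS1 male 1, the other library with high Rpl3-ps1, and 407 to 456 CPM in the remaining 7. Its coefficient of variation went from 10.6% to 7.61% when its copies were added.

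The spread of the copies was compared between the genotypes as a description. The coefficient of variation within APP/PS1/Hras-/- mice was more than 2 times that within APP/PS1 mice in 22 of the 134 tested copies (16.4%), in 4 of the 79 genes (5.06%) and in 8.12% of all genes tested. The reverse held in 8 copies (5.97%), 10 of the 79 genes (12.7%) and 6.96% of all genes. The median coefficient was 24.2% in APP/PS1 and 27.3% in APP/PS1/Hras-/- mice for the copies, and 8.91% and 7.21% for the 79 genes.

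**Figure D5:**
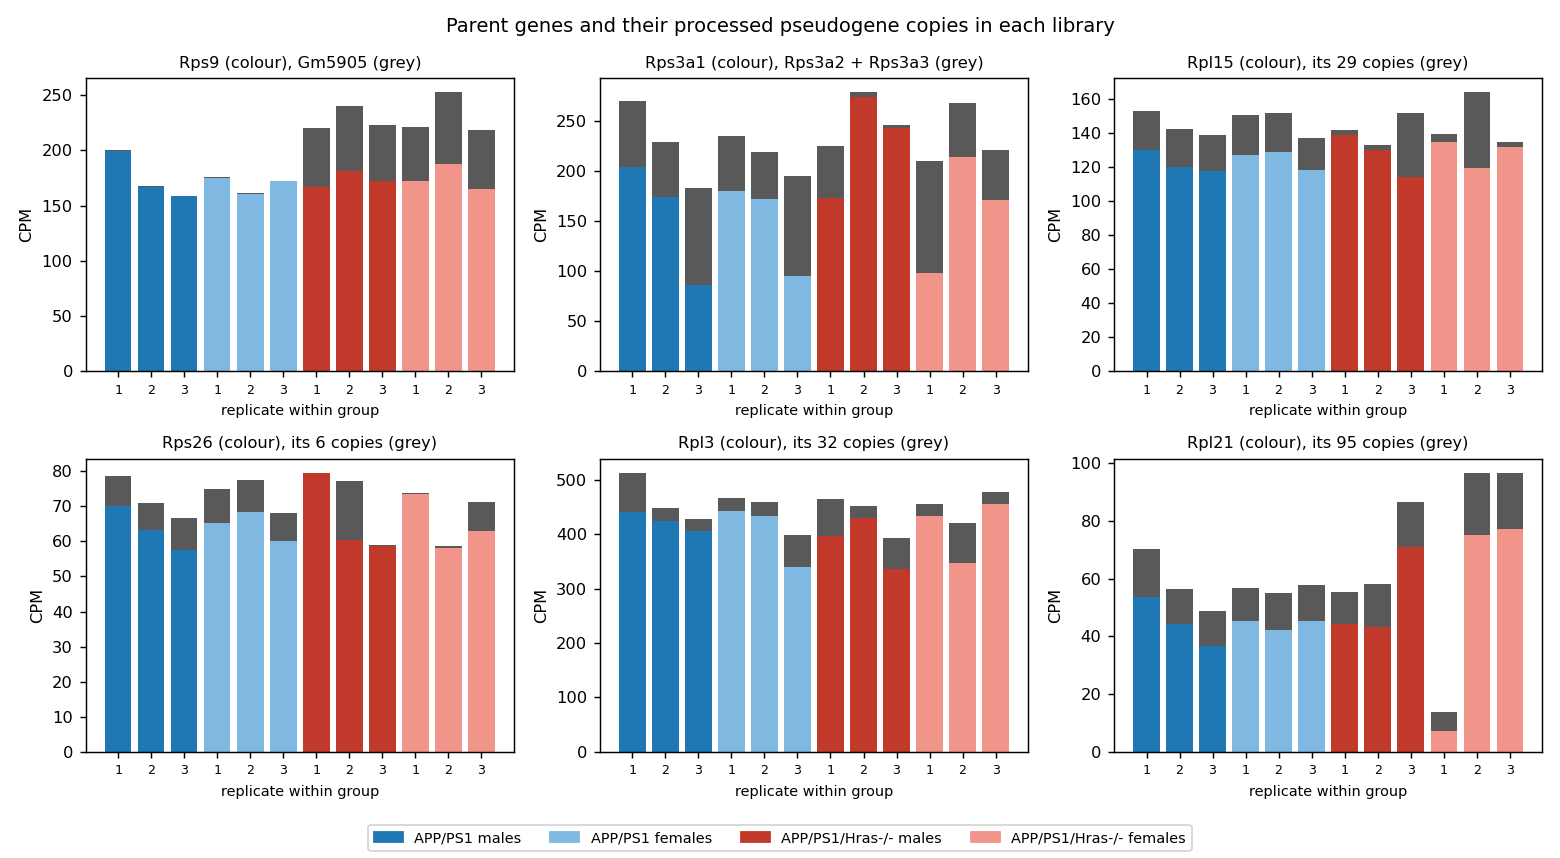
Bars give CPM in each of the 12 libraries for 6 parent genes (coloured by group) with their copies stacked on top in grey. Gm5905 adds 49.0 to 64.5 CPM to Rps9 in the 6 APP/PS1/Hras-/- libraries and less than 1 CPM in the controls, while grey and coloured parts of Rps3a1 run against each other.

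Genes that act with the ribosome were read from the same fits. Across sexes 0 of 21 translation factors and other messages with a TOP start passed in edgeR, with a median of 0.01 and 10 of 21 below 0. The smallest p belonged to the initiation factor genes Eif3f (-0.09, SE 0.077) and Eif4b (0.05, SE 0.050), to Fau (-0.08, SE 0.087), which encodes a ubiquitin-like protein fused to a ribosomal protein, and to the histone chaperone gene Nap1l1 (0.04, SE 0.046). For RIN, 18 of the 21 were below 0 with a median of -0.18, and 8 had an unadjusted p under 0.05, against 49.7% and 13.2% of all genes, with Eef1a2, the elongation factor of neurons and muscle, at -0.55 (SE 0.16, edgeR adjusted p = 0.231). Without APP/PS1 male 1, 15 of the 21 were below 0 with a median of -0.07, against 48.7% of all genes below 0. Of the 21, 0 then had an unadjusted p under 0.05.

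Of 35 ribosome biogenesis genes 0 passed across sexes, with 13 below 0 and a median of 0.01. Polr1a, the largest subunit of RNA polymerase I, which transcribes ribosomal RNA genes, differed by -0.32 (SE 0.087, edgeR adjusted p = 0.9999), and by -0.52 in females (SE 0.10, unadjusted p = 1.971e-04, edgeR adjusted p = 0.682). Gar1 had -0.10, Utp4 0.08 and Polr1d 0.09. Of 19 genes of mTORC1 and of TOP translation control 0 passed, with 6 below 0 and a median of 0.02. Deptor, an inhibitor bound to mTOR, differed by 0.20 (SE 0.070, unadjusted p = 0.0136, edgeR adjusted p = 0.9999), Mtor by 0.07, Eif4ebp1 by -0.09 and Rps6kb2 by -0.04. Of the 8 tested genes for ribosome quality control and rescue 0 passed, with 4 below 0 and a median of 0.01. Pelo, which rescues stalled ribosomes, had -0.17 (SE 0.16) and Eif2ak4, the kinase that senses stalling, 0.06 (SE 0.061). Without adjustment, p was under 0.05 in 0, 1, 1 and 0 genes of the 4 lists, where 1.68% of all genes had it.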

How the data were processed

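Frontal cortex mRNA of 12 mice was read in pairs from TruSeq Stranded mRNA libraries, per the labels. The deposited values are raw read counts per gene and library. Per the submitters' processing notes the tools were HISAT2 2.1.0, featureCounts, Trimmomatic 0.33 and FastQC 0.11.7, and the builds mm10 and mm9 are listed without a role; no source used here states the annotation, the strand setting or how multiply aligned reads were treated. Counts were joined to GENCODE M21. In R 4.3.3, filterByExpr kept 17307 genes, CPM used TMM factors, and edgeR 4.0.16 (quasi-likelihood, robust) was fitted over all genes with Benjamini-Hochberg adjusted p under 0.05 as the threshold. Effects across sexes, of sex and of RIN came from additive models, those within a sex and the interaction from 4 group means. SEs came from the F statistic, 95% intervals from 1.96 SE. Pseudogenes were matched with blastn 2.17.0. DESeq2 1.42.0, RLE scaling, no filter, a RIN term, added copies and left-out libraries were alternatives. The fit was tested on simulated data.

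The genes, lists and tests were chosen with earlier results of these data known. Named genes were, for each genotype comparison, the 8 smallest p on each side, and 5 for interaction, sex and RIN, the 5 highest and lowest levels, stalk genes, paralogs, the 5 genes with the most copy counts relative to their own, and 2 per side in each pathway list. Some genes are not reported here, and 78 of 79 are drawn where genes are labelled. Other genes named were chosen after their values were seen.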

Additional observations from a re-analysis of the deposited data

Results flagged for a closer look

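The summed level, named genes and printed copies gave 66 quantities, each examined in the 6 mice of either genotype. In 27 of 132 groups the highest or lowest mouse lay far from the others, with a gap above Dixon's 95% critical value. Chance flags about 1 in 20 groups of unselected values. Many of these genes and copies were chosen by their values in these libraries, and the genes share their libraries, so that rate is no background for the 27. In 15 of the flagged groups the mouse was APP/PS1 male 1. Its summed level was 12750 CPM, with the nearest other APP/PS1 mouse at 10980 CPM. It was also highest in Rpl27a (188 CPM, next 164), Rplp2 (102 CPM, next 86.5), Rpl36 (73.1 CPM, next 58.0), Rpl13 (221 CPM, next 178), Rps21 (129.7 CPM, next 108) and Rpl35 (99.5 CPM, next 83.0). The same held for Rpl31 (194 CPM, next 169), Rpl14 (164 CPM, next 124), Rps15 (323.5 CPM, next 241), Rpl13a (13.7 CPM, next 11.1) and Rps29 (283 CPM, next 240.1). It held as well for Rpsa (479.7 CPM, next 388), Rpl7 (211 CPM, next 185) and Rps4x (245.5 CPM, next 201.5).

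APP/PS1/Hras-/- female 2 stood apart from the other knockout mice in 8 genes. It was highest in Rps25 (177 CPM, next 147), Rpl38 (103.8 CPM, next 85.5), Rpl31 (204 CPM, next 168), Rpl23a (158 CPM, next 137), Rps28 (73.8 CPM, next 55.8), Rpl22 (92.3 CPM, next 82.0) and Rps27 (124 CPM, next 97.7), and lowest in Rps19bp1 (9.75 CPM, next 11.03). APP/PS1/Hras-/- male 3 was lowest in Rpl27a (136 CPM, next 152). APP/PS1 female 3 was lowest in Rpl3 (339.7 CPM, next 407) and highest in the Rpl29 copy Gm8210 (6.56 CPM, next 0.06). APP/PS1 male 3 was highest in the Rpl34 copy Rpl34-ps1 (22.8 CPM, next 16.4).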

How the results depend on the processing

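In each of 107 combinations of comparison and alternative (6 comparisons under RLE scaling, no filter on low counts, DESeq2, a RIN term, added pseudogene copies and left-out libraries) 0 of the 79 genes passed. Medians moved by more than the spread between mice in 4 of them. With a RIN term the median in males was 0.21 and that of the interaction -0.23. Without APP/PS1 male 1 the median of the interaction was 0.0023 and that of the RIN effect -0.022. With each library left out in turn, medians ran from -0.05 to 0.02 across sexes, -0.13 to 0.02 in males, -0.01 to 0.06 in females, 0.0023 to 0.18 for the interaction, -0.05 to 0.03 for sex and -0.32 to -0.02 for RIN. Gm5905 passed in all fits that kept it as a gene of its own. Of 643 values of named genes under alternatives, 596 stayed within 1 SE of the value given or, for Gm5905, kept the call and 47 moved further. The cause of these shifts was not tested. No paired analysis was possible because the labels carry no replicate numbers shared between groups; the numbers used here follow the order of the deposited samples. With these counts no difference could be read in Rpl10l, Rpl36al or Rpl39l, each with at most 20 counts in all. Rpl36al is also overlapped on the same strand by another gene, and the part of that overlap was not tested.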
